A study of Mus musculus with 12 samples.

Results

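Beta-only cells were chosen by their contigs: they were barcodes with exactly 1 productive contig of the T cell receptor beta chain (TRB) and no productive contig of the alpha chain (TRA). Of the 7056 cells listed over 6 receptor libraries, 6395 carried exactly 1 productive TRB, and 1188 of these were beta-only. The other 5207, called paired cells here, held at least 1 productive TRA. A further 431 cells had 2 or more productive TRB and 230 had none, and neither kind was used. The absence of a productive TRA chose the members and is not a finding. All members were taken as T cells from their TRB alone, because the gene expression samples were not analysed here and no transcript marker could be read.

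The libraries came from CD45+ leukocytes sorted from C57BL/6 mice with the 5xFAD transgenes (5xFADTg) or without them (NonTg). 5xFAD mice are a model of Alzheimer's disease whose transgenes are driven by the neuronal Thy1 promoter, and they deposit amyloid in the brain. Brain parenchyma gave 2 libraries per genotype and meninges gave 1. The labels give no ages and tie no library to named animals, so every p-value below measures the spread between libraries, which may be technical.

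An alpha-beta T cell joins V, D and J segments for the beta chain before it joins V and J segments for the alpha chain. The junction, called CDR3, is the part of each chain that varies most and touches the peptide. A cell and its descendants share the CDR3 nucleotide sequence of their TRB, which was used here as the name of a beta clone. Alpha rearrangement runs on both chromosomes, so a mature T cell often carries a productive alpha chain and also a nonproductive one, out of frame or interrupted by a stop codon. A nonproductive rearrangement is inherited by the descendants of the cell that made it and can be seen as a transcript.

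Per library, the listed contigs held 15827899 to 26710709 reads and 49997 to 128700 unique molecular identifiers (UMIs, 1 per captured transcript). In paired cells the median TRA had 34 to 75 UMIs by library, and 6.02% to 9.01% of paired cells had a main TRA of at most 2 UMIs. Over the libraries, 21 barcodes occurred in 2 libraries, 5 of the beta-only barcodes among them, and 0 of these 5 had the same TRB in the other library.

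The sequences shown here belong to clones in which nearly all cells were beta-only, and to clones that linked beta-only cells to an alpha chain. They are CDR3 sequences from the contig lists, named by the clone's V and J segments (V/J), as clones are throughout, and written 5′ to 3′. Capitals mark the bases between the parts that match the germline V and J segments of GENCODE M21, each match spanning at least 6 bases. TRB lies on mouse chromosome 6 and TRA on chromosome 14. The first 5 lines are TRB junctions found with no alpha chain shared by the clone's cells.
TRBV12-1/TRBJ1-1, 5xFADTg: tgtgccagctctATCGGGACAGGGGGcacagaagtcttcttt
TRBV12-1/TRBJ2-5, NonTg: tgtgccagctctcCagacacccagtacttt
TRBV12-1/TRBJ2-2, NonTg: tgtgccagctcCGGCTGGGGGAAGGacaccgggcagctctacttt
TRBV12-2/TRBJ1-2, 5xFADTg: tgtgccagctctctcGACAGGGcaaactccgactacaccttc
TRBV12-2+TRBV13-2/TRBJ2-7, NonTg: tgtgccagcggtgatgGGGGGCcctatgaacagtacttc
The next lines are the TRB and TRA junctions of a clone in the second NonTg parenchyma library, and of a cell in the second 5xFADTg parenchyma library whose chains have the same amino acids.
TRBV12-1/TRBJ2-7, NonTg: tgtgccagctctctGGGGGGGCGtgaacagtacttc
TRBV12-1/TRBJ2-7, 5xFADTg: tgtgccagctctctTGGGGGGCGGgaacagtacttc
TRAV9D-2/TRAJ52, NonTg: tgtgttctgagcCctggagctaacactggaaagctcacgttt
TRAV9-2/TRAJ52, 5xFADTg: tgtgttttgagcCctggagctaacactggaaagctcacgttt
The last lines are the TRB and TRA junctions of the largest mixed clone, found in the second 5xFADTg parenchyma library and in the 5xFADTg meninges.
TRBV1/TRBJ2-5, 5xFADTg: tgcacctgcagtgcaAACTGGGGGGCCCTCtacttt
TRAV10D/TRAJ42, 5xFADTg: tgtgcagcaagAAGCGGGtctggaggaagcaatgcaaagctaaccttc

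Beta-only cells made up 18.6% of the cells with 1 productive TRB (95% exact binomial interval 17.6 to 19.6%). Their share was 17.1% in the first NonTg parenchyma library (220 of 1283 cells) and 16.6% in the second (152 of 918). It was 16.0% in the first 5xFADTg parenchyma library (229 of 1435) and 24.8% in the second (478 of 1931). It was 9.35% in the NonTg meninges (36 of 385) and 16.5% in the 5xFADTg meninges (73 of 443). The second 5xFADTg parenchyma library stood above the other 5, with an interval of 22.8 to 26.7%, and the NonTg meninges stood below them, with an interval of 6.64 to 12.7%. Intervals cover counting error only. Without the 107 cells of its largest clone, described below, the second 5xFADTg parenchyma library had 20.4% beta-only cells.

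**Figure D1:**
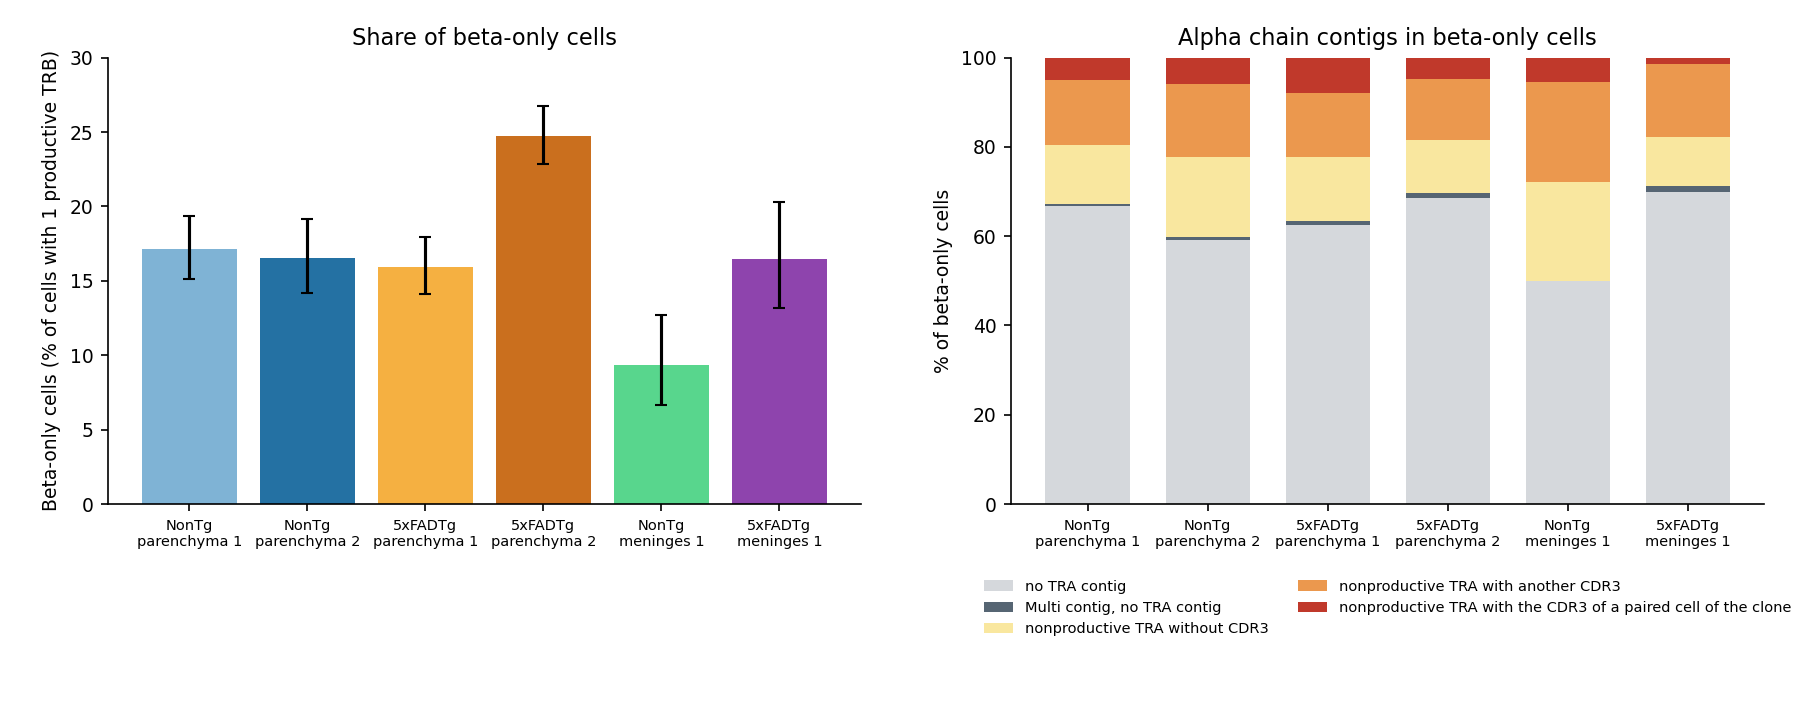
Left, beta-only cells as a percentage of cells with 1 productive TRB in each of the 6 libraries, with 95% exact binomial intervals; right, the alpha chain contigs of the beta-only cells as stacked percentages. The second 5xFADTg parenchyma library reaches 24.8% and the NonTg meninges 9.35%, and cells with no TRA contig form 50% to 69.9% of beta-only cells.

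No TRA contig of any kind was listed for 777 of the 1188 cells (65.4%, interval 62.6 to 68.1%), and this share ran from 50% in the NonTg meninges to 69.9% in the 5xFADTg meninges. The other cells, 401 with a nonproductive TRA and 10 with only a contig of mixed locus labels, fell into several kinds. In 64 cells (5.39%) a nonproductive TRA contig had the same CDR3 as the productive TRA of a paired cell of the same clone. In 175 cells (14.7%) the nonproductive TRA had another CDR3, and in 162 (13.6%) it had none assigned.

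The 64 contigs that matched the clone's alpha chain were spread over 49 clones. All 64 were full length, 63 had the same TRAV segment as the clone's productive TRA and 62 the same TRAJ segment. They had a median of 41.5 UMIs (range 1 to 221), and 8 of them had 1 UMI. They accounted for 12.3% of the 521 beta-only cells whose clone held a paired cell. In these cells the alpha chain of the clone was therefore listed, but not as productive. The clone TRBV17/TRBJ1-1 of the first 5xFADTg parenchyma library gave 7 such cells, with 42 to 100 UMIs.

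Nonproductive TRA contigs of another kind often recurred within a clone. Counted here were nonproductive TRA contigs with V and J segments assigned. Those with the CDR3 of a productive TRA of the clone were left out, and those without a CDR3 were kept. There were 109 beta-only cells with such a contig and a paired cell in their clone. Of these, 73 (67.0%, interval 57.3 to 75.7%) had a V and J pair that a paired cell of the clone also carried as nonproductive. These 73 cells belonged to 36 clones. The interval treats cells as independent, which cells of a clone are not, and no match rate between unlike clones was computed. The clone TRBV12-2+TRBV13-2/TRBJ1-1 of the second 5xFADTg parenchyma library carried a nonproductive TRAV8N-2 with TRAJ32 in 9 of 11 beta-only cells and in 46 of 60 paired cells. The clone TRBV12-2+TRBV13-2/TRBJ2-7 of 99 cells in the second NonTg parenchyma library carried TRAV13-1 with TRAJ32 in 4 of 5 beta-only and 56 of 94 paired cells. In the clone TRBV20/TRBJ2-1 of the first 5xFADTg parenchyma library, TRAV14N-3 with TRAJ35 was nonproductive in 4 of 6 beta-only and 7 of 21 paired cells. In each of these clones both kinds of cell thus held nonproductive alpha contigs of the same V and J pair, as well as the same TRB. The first of these clones was chosen after its values were seen. Recurrence was weaker elsewhere, and some large clones had no beta-only cell with their commonest nonproductive pair. TRBV1/TRBJ2-5 of the second 5xFADTg parenchyma library had TRAV12-1 with TRAJ56 in 8 of 30 beta-only and 29 of 85 paired cells. In the first 5xFADTg parenchyma library, TRBV17/TRBJ1-1 had TRAV14-1 with TRAJ31 in 1 of 22 and 8 of 64. There, TRBV1/TRBJ1-4 had TRAV7D-2 with TRAJ27 in 2 of 5 and 0 of 71.

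Nonproductive TRB contigs recurred within clones too. Among 66 beta-only cells that had a nonproductive TRB contig with V and J segments and a paired cell in their clone, 57 (86.4%, interval 75.7 to 93.6%) shared its V and J pair with a paired cell, over 16 clones. In the clone TRBV1/TRBJ2-5 a nonproductive TRBV31 with TRBJ1-3 was listed in 26 of 30 beta-only and 70 of 85 paired cells of the second 5xFADTg parenchyma library. It was listed in 2 of 4 beta-only and 14 of 14 paired cells of the 5xFADTg meninges. This clone thus gave a large part of the 57 cells. The interval treats cells of a clone as independent, which they are not.

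Some nonproductive contigs carried the alpha segments TRAV11 and TRAJ18 of iNKT (invariant natural killer T) cells, a lineage that sees lipids bound to CD1d. Of 442 nonproductive TRA contigs in beta-only cells, 9 used this pair and 8 of these had a CDR3 of 15 amino acids, the length of the invariant chain. Of 1319 in paired cells, 1 used the pair and 0 had that length. The rule itself favours this contrast, since a cell whose invariant chain was listed as productive is a paired cell. The second 5xFADTg parenchyma library held 5 of the 8. Nonproductive TRA contigs had a CDR3 assigned in 57.7% of cases in beta-only cells and 47.4% in paired cells, were full length in 89.4% and 89.3%, and had medians of 49 and 55 UMIs.

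Contigs labelled with mixed loci occurred in 12 beta-only cells (1.01%, interval 0.523 to 1.76%) and in 13 paired cells (0.250%, interval 0.133 to 0.427%). Of the 13 such contigs in beta-only cells 12 carried a delta chain V segment (TRDV), with TRDV1 in 7 and TRDV2-2 in 4, and 0 were productive. The 13 contigs in paired cells were made up alike: 12 carried a TRDV, with TRDV1 in 9 and TRDV2-2 in 3, and 0 were productive. The delta chain genes lie inside the alpha locus and are lost when alpha rearranges on that chromosome. These contigs had a median of 65 UMIs in beta-only and 71 in paired cells.

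The TRB of 521 beta-only cells (43.9%) was also in a paired cell of the same library. Another 24 (2.02%) had it only in a paired cell of another library, and 643 (54.1%) had it in no paired cell. Of the 521, 105 belonged to the clone TRBV12-1/TRBJ1-1 described below, whose 2 paired cells had unlike alpha chains, and without that clone the count was 416 of 1082 (38.4%). By library, the share with a paired cell in the same library was 37.7% and 30.3% in NonTg parenchyma, 42.4% and 56.5% in 5xFADTg parenchyma, 27.8% in NonTg meninges and 20.5% in 5xFADTg meninges. Without that clone the value of 56.5% became 44.2% (165 of 373). The match in another library alone was found for 8 of 36 beta-only cells in NonTg meninges and for 10 of 73 in 5xFADTg meninges, against 1 or 2 cells in each parenchyma library. In the deposited clonotype numbering, 0 of the 1188 beta-only cells shared a clonotype with a paired cell, so the numbering splits mixed clones.

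**Figure D2:**
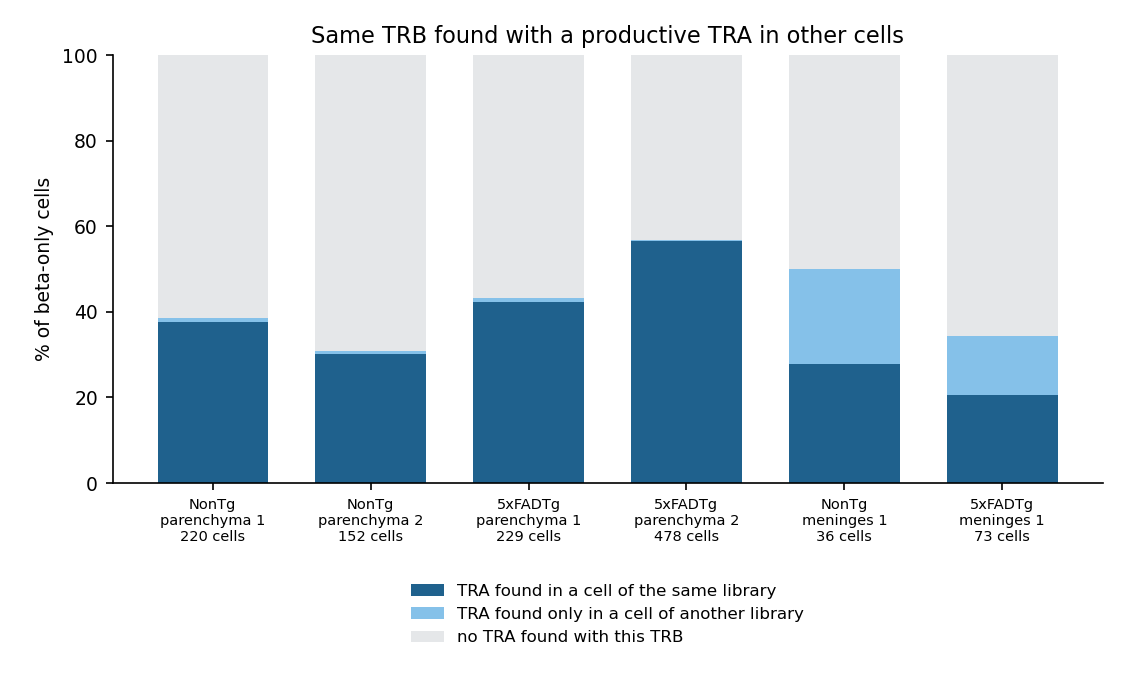
Beta-only cells of each library, as percentages, split by whether the same TRB was found with a productive TRA in a cell of the same library, only in another library, or in no cell. The second 5xFADTg parenchyma library has the highest share in the same library (56.5%, or 44.2% without the clone TRBV12-1/TRBJ1-1), and both meninges libraries have a visible share matched only in another library.

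Counted within libraries, the 1188 cells formed 804 beta clones, of which 178 (22.1%) also held paired cells and 626 did not. Cells alone in their clone numbered 600 (50.5%). The remaining 588 belonged to clones of 2 or more cells, 521 of them in mixed clones and 67 in 26 clones without any paired cell. Of these 26 clones, 22 had 2 cells and 4 had 3 or more. By clone size, the beta-only share was 19.1% among clones of 1 cell, 16.8% among clones of 2 to 4, 16.9% among clones of 5 to 9 and 19.1% among clones of 10 or more. The libraries differed: in clones of 10 or more it was 16.3% and 8.71% in NonTg and 12.3% in the first 5xFADTg parenchyma, against 18.7%, 21.0% and 18.6% in clones of 1 cell. In the second 5xFADTg parenchyma library it was 28.9% against 23.4%, and 16.5% in clones of 10 or more without the clone TRBV12-1/TRBJ1-1. Without that clone the pooled value for 10 or more was 14.2%.

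The largest group of beta-only cells was the clone TRBV12-1/TRBJ1-1 of the second 5xFADTg parenchyma library. Of its 107 cells, 105 were beta-only (98.1%, interval 93.4 to 99.8%), and these made up 22% of the library's beta-only cells. Its V segment TRBV12-1 lies at chr6:41113550-41114067 and its J segment TRBJ1-1 at chr6:41533864-41533911, both on the plus strand (mm10, GENCODE M21), and its D segment was labelled TRBD1. Its TRB had a median of 6 UMIs and a range of 2 to 34 in beta-only cells. No TRA contig was listed for 100 of the 105 cells. The other 5 each had a nonproductive TRA contig that was not full length and had no V segment, and these used TRAJ37, TRAJ41, TRAJ41, TRAJ42 and TRAJ49 with 20 to 83 UMIs. The 2 paired cells had different alpha chains, TRAV16 with TRAJ53 at 1 UMI and TRAV9-2 with TRAJ37 at 3 UMIs. One TRB was therefore found in over 100 cells without an alpha chain that these cells shared. The same TRB occurred in 1 cell of the 5xFADTg meninges, which was beta-only too, and 0 of its cells had a contig of mixed loci.

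In 4 smaller clones, singled out because they had no paired cell and at least 3 cells, the counts leave wide intervals. The clone TRBV12-1/TRBJ2-5, with a single base between its V and J parts, had 11 of 11 cells beta-only (interval 71.5 to 100%) in the first NonTg parenchyma library, with 3 to 14 TRB UMIs and no TRA contig in any. The clone TRBV12-1/TRBJ2-2 had 5 of 5 beta-only there (47.8 to 100%) and 1 of 1 in the NonTg meninges, again with no TRA contig in the 5. The clone TRBV12-2/TRBJ1-2 had 4 of 4 (39.8 to 100%) in the second 5xFADTg parenchyma library and 1 of 1 in the 5xFADTg meninges. A clone TRBV12-2+TRBV13-2/TRBJ2-7 had 3 of 3 (29.2 to 100%) in the second NonTg parenchyma library, 1 of them with a nonproductive TRA. The last pair was chosen after its values were seen. Of these 4 clones, 2 used TRBV12-1, the segment of the largest clone, and 1 used TRBV12-2. Over all 804 beta-only clones, 35 used TRBV12-1 and 37 used TRBV12-2. The V use of the 22 clones of 2 cells without a paired cell was not counted, so no trait of these segments is read from 4 clones.

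Other clones were mixed and kept 1 alpha chain among their paired cells. The clone TRBV12-1/TRBJ2-7 had 8 of 12 cells beta-only (66.7%) in the second NonTg parenchyma library, and its 4 paired cells all had the alpha chain TRAV9D-2/TRAJ52 shown above. Of the 8 beta-only cells, 4 listed this very CDR3 as nonproductive, with 2 to 122 UMIs. A paired cell of the second 5xFADTg parenchyma library had the same amino acids in both chains, but other nucleotides in both and TRAV9-2 in place of TRAV9D-2, as the sequences above show.

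The clone TRBV1/TRBJ2-5 had 30 of 115 cells beta-only (26.1%) in the second 5xFADTg parenchyma library and 4 of 18 (22.2%) in the 5xFADTg meninges, and all 85 and 14 of its paired cells carried the TRAV10D/TRAJ42 junction as the main alpha chain. The clone TRBV17/TRBJ1-1 had 22 of 86 (25.6%) in the first 5xFADTg parenchyma library and 1 of 5 in the meninges. The clone TRBV12-2+TRBV13-2/TRBJ2-4 had 11 of 33 (33.3%) and 2 of 4 in the same pair of libraries. Beta-only cells were thus found in both tissues of a clone. In NonTg, the clone TRBV19/TRBJ2-1 had 12 of 29 (41.4%) in the first NonTg parenchyma library and 0 of 1 in the NonTg meninges, and the clone TRBV12-2/TRBJ2-7 had 7 of 29 (24.1%) in the former. Lower shares occurred in clones of similar size. In the second NonTg parenchyma library the clone of 99 cells had 5 beta-only (5.05%) and another TRBV19/TRBJ2-1 clone 6 of 72 (8.33%). The clone TRBV5/TRBJ1-1 of the second 5xFADTg parenchyma library had 13 of 82 (15.9%), and TRBV20/TRBJ2-1 of the first had 6 of 27 (22.2%). In the meninges the clones with most beta-only cells besides TRBV1/TRBJ2-5 were small. The clone TRBV13-1/TRBJ1-1 had 3 of 4 in NonTg, and TRBV19/TRBJ2-7 and TRBV26/TRBJ2-7 each had 2 of 3 in 5xFADTg. There, 4 clones had 2 beta-only cells each: these, TRBV12-2+TRBV13-2/TRBJ2-4, and TRBV31/TRBJ2-1, with 2 of 2 there and 1 of 1 in the second 5xFADTg parenchyma library.

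**Figure D3:**
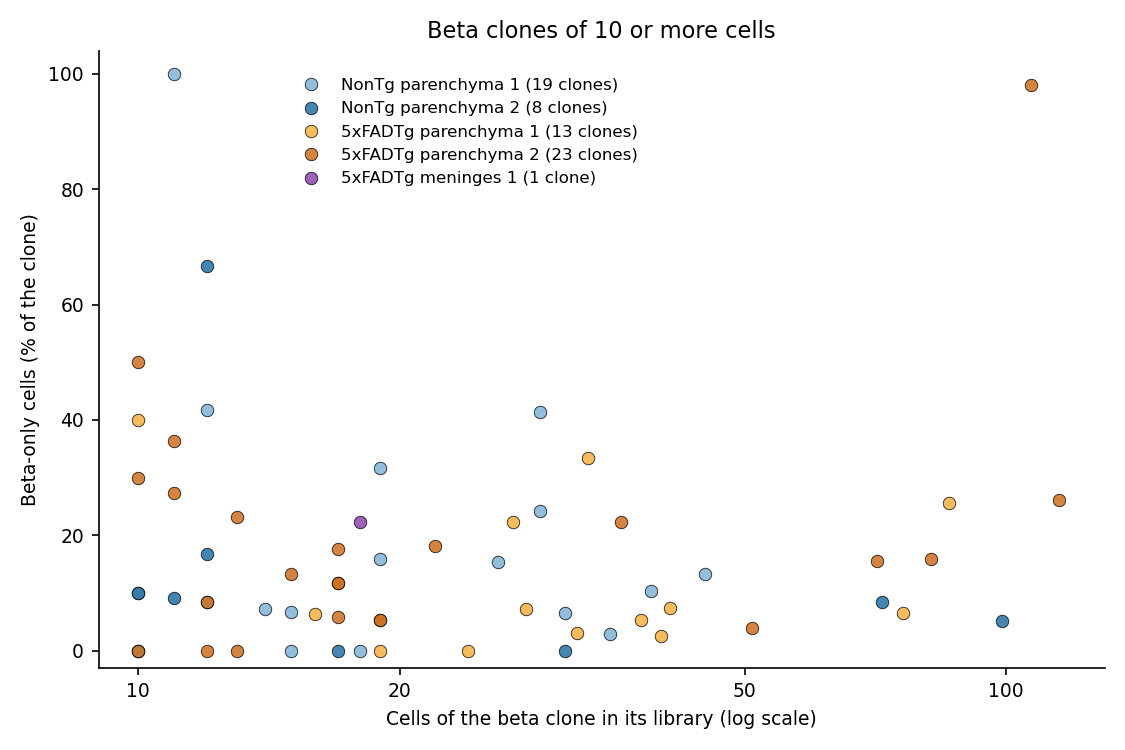
Percentage of beta-only cells in each of the 64 beta clones of 10 or more cells against the clone's cell number on a log scale, coloured by library. Most clones lie below 50%, with a median of 10.0%, and 3 clones stand above it at 66.7%, 98.1% and 100%.

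Over the 64 clones of 10 or more cells the beta-only share ran from 0% to 100% with a median of 10.0%, and 11 clones had no beta-only cell. By library the median was 10.0% and 8.71% in NonTg parenchyma, 6.58% and 15.5% in 5xFADTg parenchyma. The shares related weakly to how much alpha transcript the clone's paired cells held. Over the 62 of these clones with at least 3 paired cells, Spearman's rho between the clone's median TRA UMIs and its beta-only share was -0.25 and Pearson's r was -0.23, given as a description since clones of a library share its depth. Median TRA UMIs were 50 in the 11 clones without beta-only cells, 49 in the 20 clones with under 10% and 47.5 in the 31 clones with 10% or more, so the groups overlapped.

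Large parenchymal clones could be followed into the meninges of the same genotype. The 14 clones with 10% or more beta-only cells in parenchyma had 14 beta-only cells of 62 in the meninges (22.6%, interval 12.9 to 35.0%). The 17 clones with under 10% had 2 of 50 (4%, interval 0.488 to 13.7%). These 14 and 17 are clone and library pairs with at least 10 cells in parenchyma, and whether they come from the same animals is not given in the labels. No test was run, since cells of a clone are not independent. Both genotypes are pooled here, and the clones under 10% had a larger part of their meningeal cells in NonTg. Of cells with 1 productive TRB, 9.35% were beta-only in the NonTg and 16.5% in the 5xFADTg meninges. The clone TRBV1/TRBJ2-5 alone gave 4 of the 14 beta-only cells.

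Beta-only clones were found again mostly in the other tissue of the same genotype. Of the 34 beta-only clones of the NonTg meninges, 9 were found in the first and 6 in the second NonTg parenchyma library. Of the 66 in the 5xFADTg meninges, 10 and 9 were found in the 5xFADTg parenchyma libraries. Between the parenchyma libraries of a genotype 0 beta-only clones were found. Between genotypes 2 of the 260 clones of the second 5xFADTg parenchyma library were found, in paired cells of the second NonTg parenchyma library. Their main alpha chains differed, 5xFADTg first: TRAV6D-5/TRAJ53 against TRAV9D-1/TRAJ57 for TRBV3/TRBJ1-3, and TRAV13-1/TRAJ48 against TRAV13-1/TRAJ57 for TRBV3/TRBJ2-2. The same counts were not made for clones of paired cells, so this sharing is not shown to be particular to beta-only clones.

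Within each library the beta-only cells were compared with the paired cells over 10 measures, by two-sided exact sign-flip permutation tests over the 6 libraries with Benjamini-Hochberg adjustment over the 10. The smallest p that 6 libraries allow is 0.0312, and 0 of the 10 measures passed an adjusted p of 0.05. The nonproductive TRA share and the share of cells with 1 TRB UMI had this smallest p by the sign-flip test, adjusted to 0.156. A single measure thus could not pass, and the lack of calls does not show that both kinds of cell are alike. The rule favours the first of these measures, and a minimum of unknown source set the second. Both lower the adjusted p of the others. Nonproductive TRA contigs were in 32.7%, 40.1%, 36.7%, 30.3%, 50% and 28.8% of beta-only cells, in the order NonTg parenchyma 1 and 2, 5xFADTg parenchyma 1 and 2, NonTg meninges and 5xFADTg meninges. In paired cells they were in 21.9%, 26.5%, 23.5%, 26.1%, 29.8% and 23.0%. The beta-only value was the higher one in 6 of 6 libraries, with means of 36.4% ± 7.84 (SD, n = 6) and 25.1% ± 2.91, a difference of 11.3 points. This is a description, with nothing read from its test, because the productive flag of TRA contigs chose the cells: one whose own alpha chain was listed as nonproductive, as in the 64 above, is beta-only by the rule. Nonproductive TRB contigs went the other way, in 35.7% ± 6.54 of beta-only and 41.2% ± 3.25 of paired cells, lower in 5 of 6 libraries (exact permutation p = 0.0938, adjusted 0.188).

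The median TRB UMIs per cell were 7, 7, 8, 7, 7.5 and 6 in beta-only cells in the same library order, and 8, 8, 8, 8, 9 and 9 in paired cells. They were lower in 5 libraries and equal in the first 5xFADTg parenchyma library, by 1.25 UMIs on average (exact permutation p = 0.0625, adjusted 0.156). Within the 178 mixed clones, where both kinds of cell have the same TRB, mean log2 TRB UMIs were lower by 0.22, 0.30, 0.25, 0.30 and 0.72 in 5 libraries and higher by 0.17 in the second NonTg parenchyma library, a mean difference of -0.27 (exact permutation p = 0.0625, adjusted 0.156). The contig lists held 0 beta-only cells with 1 TRB UMI against 115 paired cells. Beta-only cells began at 2 UMIs (45 cells, with 123 at 3), and the filter behind this minimum is not known here. With TRB of 1 UMI left out of both kinds, the difference of the medians was -1.42 UMIs.

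**Figure D4:**
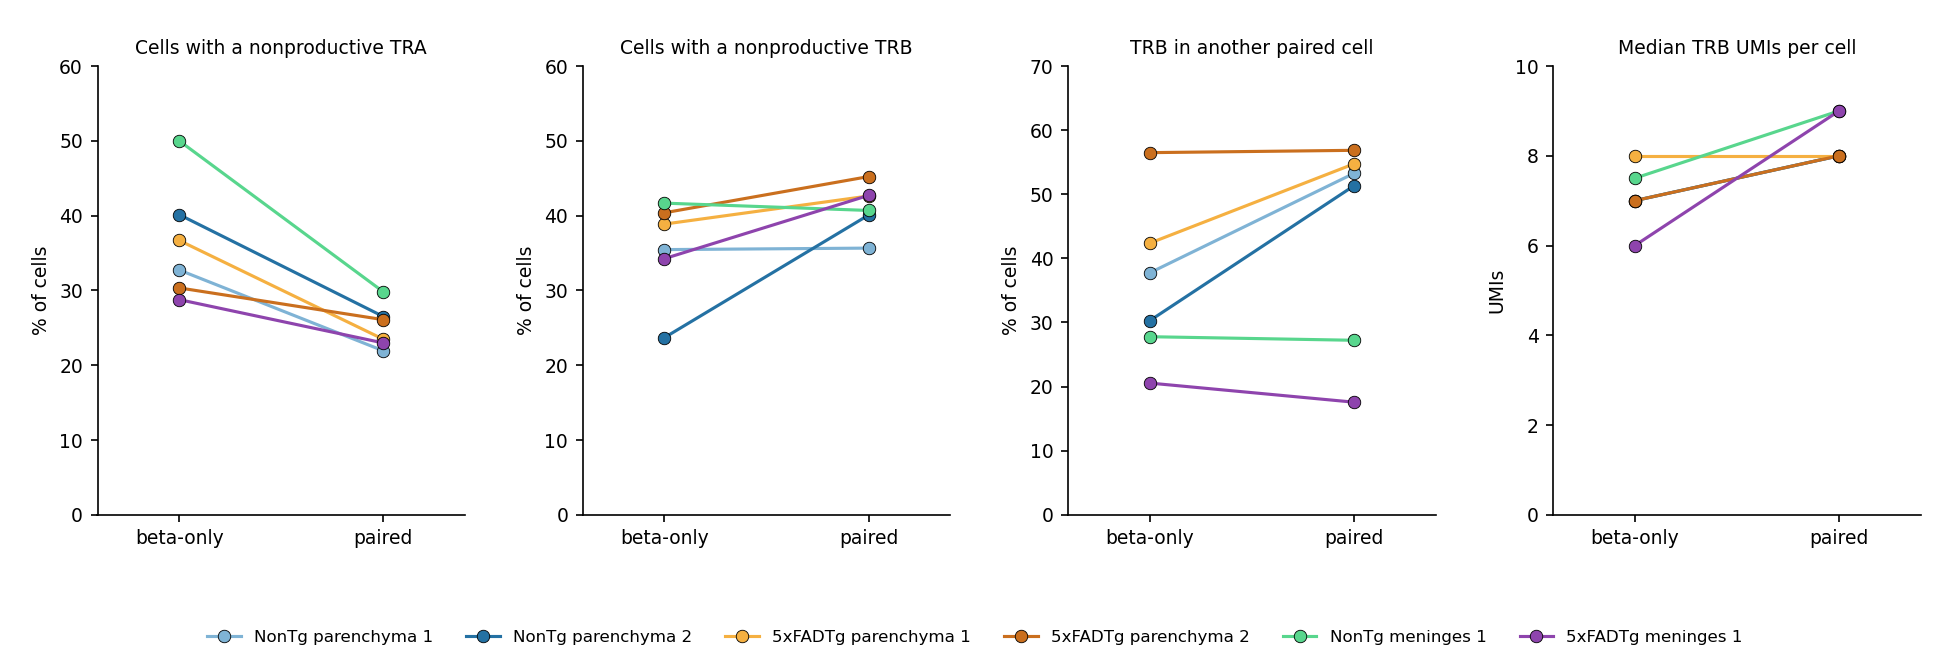
Values per library in beta-only and paired cells, joined by a line for each of the 6 libraries: percentage of cells with a nonproductive TRA, with a nonproductive TRB and with a TRB found in another paired cell, and median TRB UMIs per cell. All 6 lines fall from beta-only to paired for nonproductive TRA, and 5 rise for median TRB UMIs.

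The TRB of a beta-only cell was compared with that of a paired cell for how often another paired cell had it. The values, beta-only first, were 37.7% against 53.2% and 30.3% against 51.3% in NonTg parenchyma, 42.4% against 54.7% and 56.5% against 56.8% in 5xFADTg parenchyma, 27.8% against 27.2% in NonTg meninges and 20.5% against 17.6% in 5xFADTg meninges. The mean difference was -7.63 points (exact permutation p = 0.219, adjusted 0.365). Without the clone TRBV12-1/TRBJ1-1, an alternative chosen after seeing the data, it was -9.61 points (exact permutation p = 0.125, adjusted 0.179). The productive TRA that chose the cells also enters this value. Where clones differ in how often a TRA was listed, the rule favours a negative difference, so nothing is read from its test. The share of cells in clones of 2 or more differed by -3.93 points (p = 0.281 by the exact permutation test), and by -5.70 points without that clone (exact permutation p = 0.0938). CDR3 length of the beta clones was 13.99 ± 0.126 amino acids in beta-only and 14.03 ± 0.0768 in paired cells (exact permutation p = 0.375). The share of clones with a TRBJ1 segment differed by 0.597 points (exact permutation p = 0.938), and that of clones with a TRBV common in iNKT receptors by 1.32 points (exact permutation p = 0.469). None of the last 4 passed adjustment.

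No TRBV or TRBJ segment was called between beta-only and paired clones. Each segment was counted in clones and put through edgeR (quasi-likelihood) with library as block. At an adjusted p of 0.05 it called 0 of 34 segments (0% called), with 3 at an unadjusted p under 0.05. DESeq2 called 0, with 2 under 0.05. Clones with both kinds of cell, 178 of the 804 beta-only clones, were counted on both sides, which draws the sides together. The same holds for CDR3 length, the TRBJ1 share and the iNKT share of clones above. With mixed clones counted as paired only, edgeR called 0, with 4 under 0.05. The most used V segments in beta-only clones were the joint label TRBV12-2+TRBV13-2 (85 clones, 11.4% ± 3.05 against 11.2% ± 1.15 in paired clones, mean ± SD over 6 libraries), TRBV19 (76), TRBV13-3 (68), TRBV3 (63) and TRBV29 (60). Among J segments they were TRBJ2-7 (155 clones, 19.4% ± 2.94 against 20.1% ± 1.94), TRBJ2-1 (97) and TRBJ2-5 (80). The joint label is the contig annotation's own.

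The segments with the smallest p were spread over the locus. TRBV2 (chr6:41047340-41047995) had 12 beta-only clones, 2.07% ± 1.97 of clones against 3.81% ± 1.34 in paired cells, with a log2 fold change of -1.25 (SE 0.43, edgeR adjusted p = 0.143). It was lower in 5 of 6 libraries, and without the NonTg meninges, where it was 5.88% against 5.65%, the change was -1.42 with an edgeR adjusted p of 0.048, the 1 call of that fit. TRBV19 (chr6:41178375-41179048) had 8.86% ± 1.99 against 6.98% ± 1.31, higher in 5 of 6 libraries (log2 fold change 0.46, SE 0.19, edgeR adjusted p = 0.245). TRBV23 (chr6:41216073-41216526) had 8 beta-only clones, 0.92% ± 0.62 against 0.39% ± 0.22 (log2 fold change 1.55, SE 0.54, edgeR adjusted p = 0.245). Next in order came TRBV29 (0.43, SE 0.23), TRBJ1-1 (-0.29, SE 0.16) and TRBV14 (-0.57, SE 0.41), all with edgeR adjusted p above 0.05.

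**Figure D5:**
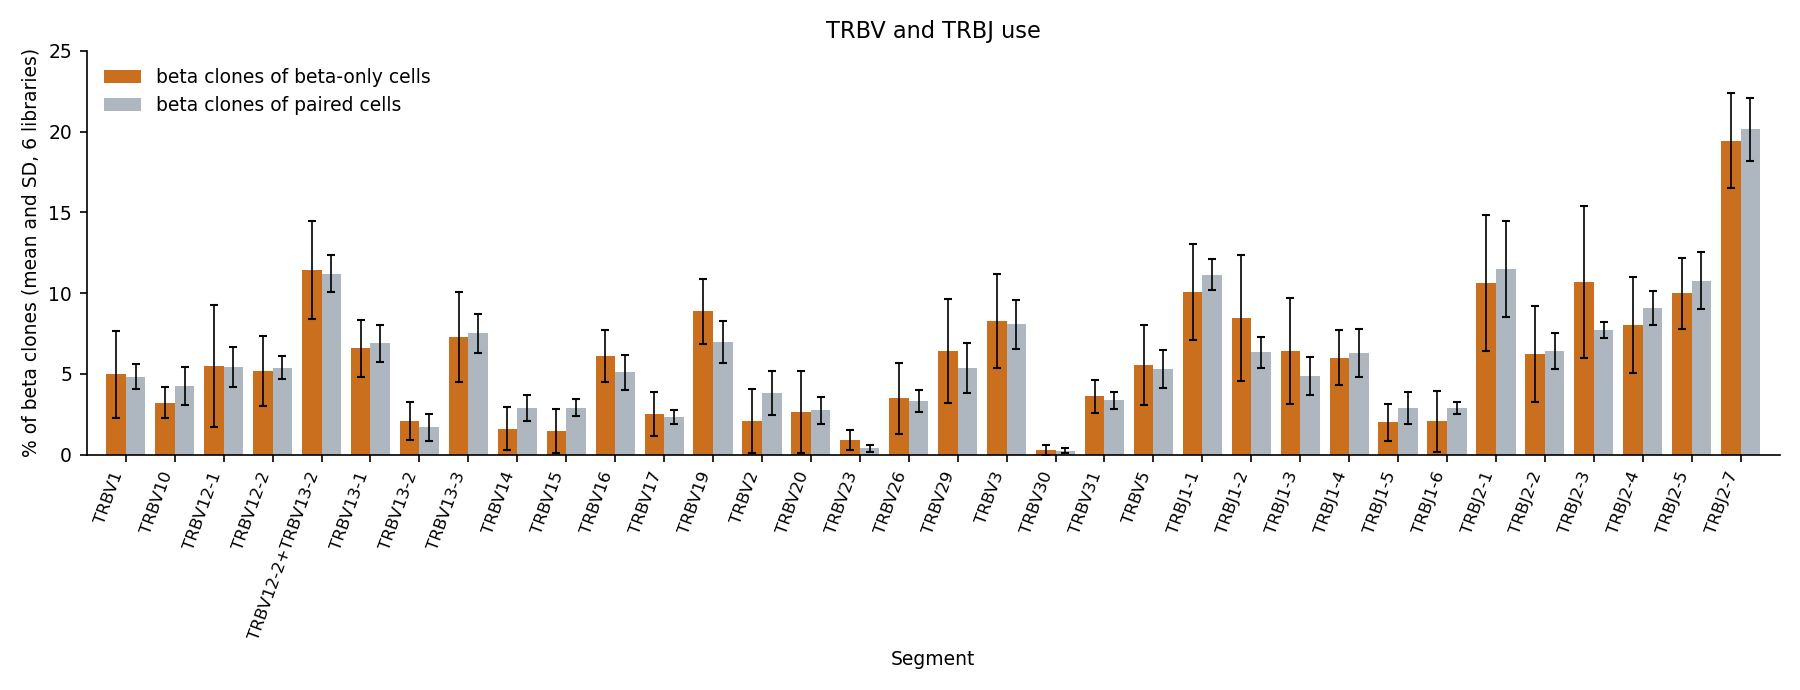
Mean percentage of beta clones that use each of 34 TRBV and TRBJ segments, in beta-only and in paired cells, with SD over 6 libraries. TRBJ2-7 stands highest among the J segments at 19.4% and 20.1%, and TRBV2 at 2.07% and 3.81% and TRBV19 at 8.86% and 6.98% are the segments named in the text.

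TRBV12-1, the segment of the largest beta-only clone, was used by 35 beta-only clones, 5.46% ± 3.77 against 5.42% ± 1.23. Counted in cells instead of clones it was the 1 called segment, higher in beta-only cells by 0.92 on the log2 scale (SE 0.25, edgeR adjusted p = 0.011), and the 107 cells of TRBV12-1/TRBJ1-1 are part of that count. Of the segments in 4 lists, 0 passed in either direction, beside 0% of all 34. The median log2 fold change was -0.09 for the 6 TRBJ1 segments, 0.00 for the 6 TRBJ2 segments, 0.18 for the 5 TRBV segments common in iNKT receptors and 0.22 for the 4 common in mucosal-associated invariant T cells, against 0.03 for all segments.

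The genotypes were compared over the 4 parenchyma libraries with two-sided exact permutation tests, whose smallest p is 0.333, so none could pass. The beta-only share was 20.4% ± 6.22 among 5xFADTg and 16.9% ± 0.417 among NonTg parenchyma libraries (SD, n = 2 each; exact permutation p = 1). The difference of 3.50 points rested on the second 5xFADTg library and was -0.894 points without it. In libraries thinned by exact rarefaction to 918 cells, a paired cell with the same TRB was present for 42.9% ± 4.89 of the 5xFADTg and 33.3% ± 4.32 of the NonTg beta-only cells (p = 0.333 by exact permutation, adjusted 1). The groups did not overlap in this value, and the difference of 9.56 points was 6.10 without the clone TRBV12-1/TRBJ1-1, 6.09 without the second 5xFADTg library and 15.4 without rarefaction. Beta-only cells in clones of 2 or more made up 49.7% ± 9.09 and 41.4% ± 7.40, and cells with a nonproductive TRA 33.5% ± 4.49 and 36.4% ± 5.24, with overlapping groups in both (exact permutation p = 0.667 each). The difference of 8.25 points in clones of 2 or more was 2.32 without that clone and 1.83 to 14.7 without 1 library, lowest without the second 5xFADTg library and highest without the first. Of 31 segments tested on beta-only clones, edgeR called 0 (0% called), 0 also at an unadjusted 0.05, and by DESeq2 both counts were 0. The smallest p belonged to TRBJ1-2, lower in 5xFADTg by 0.87 on the log2 scale (SE 0.47, edgeR adjusted p = 0.989). Next among the lower ones came TRBV12-1 (-0.98, SE 0.60) and TRBV26 (-1.39, SE 0.94), and first among the higher ones TRBV3 (0.56, SE 0.49), TRBJ2-2 (0.47, SE 0.50) and TRBV29 (0.42, SE 0.47), all at the same adjusted p. The median log2 change was -0.37 over the TRBJ1 and 0.11 over the TRBJ2 segments, 0.16 over the iNKT and 0.09 over the mucosal-associated list, against 0.04 over all 31, with 0 members called.

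The tissues were compared over 2 meninges and 4 parenchyma libraries, where the smallest exact p is 0.0667. The permutation pools the genotypes and treats the libraries as independent, although tissues of a genotype shared clones. Over ordered pairs of libraries, beta-only clones had 92 matches between tissues of the same genotype and 0 between tissues of different genotypes. This link is ignored by the exact p-values below. The beta-only share was 12.9% ± 5.04 in meninges and 18.6% ± 4.13 in parenchyma (SD, n = 2 and 4; exact permutation p = 0.333, adjusted 0.556), and 5xFADTg meninges lay within the parenchymal range. The difference of -5.69 points was -2.13 without the NonTg and -9.25 without the 5xFADTg meninges, and -3.64 without the second 5xFADTg parenchyma library. Among clones of 1 cell the shares were 9.42% and 15.7% in meninges and 18.6% to 23.4% in parenchyma, which did not overlap, a difference of -7.85 points (exact permutation p = 0.0667, the smallest possible). With each clone weighing equally it was -7.20 points, at the same exact permutation p. Rarefied to 385 cells, 25.02% ± 3.90 of meningeal and 39.0% ± 8.95 of parenchymal beta-only cells were in clones of 2 or more (exact permutation p = 0.133, adjusted 0.5). Both meningeal values, 27.8% and 22.3%, were below the lowest parenchymal one of 28.5%. A paired cell with the same TRB was present for 23.5% ± 6.05 and 30.6% ± 4.36 (exact permutation p = 0.2, adjusted 0.5), a difference of -7.06 points that was -2.78 without the 5xFADTg and -11.2 without the NonTg meninges. The share with a nonproductive TRA was 50% in NonTg and 28.8% in 5xFADTg meninges, around a parenchymal range of 30.3% to 40.1% (exact permutation p = 0.6). Without NonTg meninges the difference of 4.41 points became -6.20. Of 32 segments edgeR, with genotype as covariate, called 0 (0% called), with 0 at an unadjusted p under 0.05; DESeq2 called 0, with 1 under 0.05. The smallest p belonged to TRBV29, lower in meninges by 1.43 on the log2 scale (SE 0.77, edgeR adjusted p = 0.78), and TRBV26, higher by 1.61 (SE 0.90, edgeR adjusted p = 0.78). TRBV13-3 (-1.17, SE 0.70) and TRBV15 (-4.67, SE 3.01) followed among the lower ones, and TRBV12-1 (0.87, SE 0.65) and TRBV12-2+TRBV13-2 (0.57, SE 0.46) among the higher ones. The median log2 change was 0.09 over the TRBJ1, 0.05 over the TRBJ2, -1.09 over the iNKT and -0.78 over the mucosal-associated segments, against -0.07 over all 32, with 0 members called.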

How the data were processed

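Receptor contig lists of 6 libraries made with the 10x Chromium Immune Profiling v2 kit were analysed. They hold raw counts of reads and UMIs per contig, deposited by the authors without normalization. The submitters' processing notes name Cell Ranger 6.0 and the build mm10. Other filters: not given in the sources used here. No doublet filter was run here, but cells with 2 or more productive TRB were left out.

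Cells were classed by their productive contigs, and beta clones were named by TRB CDR3 nucleotides within a library. Libraries were the replicates. Single values were tested by two-sided exact permutation or sign-flip tests, with Benjamini-Hochberg adjustment over families of 5, 5 and 10 values and, for shares that grow with cells sampled, exact hypergeometric rarefaction. Segment counts (beta clones, library size the number of clones, at least 10 clones per segment) were tested with edgeR 4.0.16 (limma 3.58.1, R 4.3.3), with DESeq2 1.42.0 as an alternative. Python 3.11.15, pandas 2.3.3 and scipy 1.17.1 were used. Intervals are 95% Clopper-Pearson. Tests were checked on simulated data.

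The members, the segment lists and the rules for named segments and clones were chosen with earlier results of these data known. Named are segments past the threshold, the 5 TRBV and 3 TRBJ with most beta-only clones, the 3 smallest p in each direction, and the largest clones by library, without paired cells, or in 2 or more libraries. Of the 3 clones named per library, those of 1 cell are not described. The replicate numbers of the labels name no animal, and same-numbered parenchyma libraries did not deviate together (r = -0.13 over 31 segments).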

Additional observations from a re-analysis of the deposited data

Results flagged for a closer look

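Among 15 groups of 4 to 6 libraries, 3 had an extreme library far from its neighbours. Chance gives about 1 in 20 for values without ties. In the second 5xFADTg parenchyma library 24.8% of the cells with 1 TRB were beta-only, above the other 3 parenchyma libraries. When rarefied to 385 cells, the second NonTg parenchyma library had the lowest share of beta-only cells whose TRB was in a paired cell among parenchyma libraries, 24.1%. The first 5xFADTg parenchyma library had a median of 8 TRB UMIs in beta-only cells and the other 3 had 7. With 3 tied whole medians any step stands out, so nothing is read from it.

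The share of cells whose TRB was in another paired cell, beta-only minus paired, was negative in all 4 parenchyma libraries and positive in both meninges libraries, and the mean differed by 14.1 points between the tissues. That difference was not tested, the libraries differ in cells sampled, and the rule can favour negative values of this measure. Rarefied to 385 cells each, an alternative chosen after seeing the data, the values were -19.3 to -9.08 points in parenchyma and 0.557 and 2.54 in meninges.

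Contigs of mixed locus labels, which enter no test, occurred in 1.01% of beta-only and 0.250% of paired cells. What these contigs are was not tested.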

How the results depend on the processing

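The exact tests of genotype and tissue could not pass under any alternative (smallest p 0.333 and 0.0667), nor could those over 5 libraries (0.0625), so only values and signs are compared here. The difference in nonproductive TRA share between beta-only and paired cells was 9.54 to 12.7 points when 1 library was left out. Some differences turned sign. For the TRBJ1 share of beta clones, beta-only minus paired, the value was -0.65 points with beta-only defined as no TRA contig at all, and it ran from -2.26 to 2.13 without 1 library. The 5xFADTg minus NonTg difference in nonproductive TRA share was 0.678 points without the clone TRBV12-1/TRBJ1-1, an alternative chosen after seeing the data, and ran from -6.62 to 0.781 without 1 library. The genotype difference in beta-only share ran from -0.894 (without the second 5xFADTg library) to 7.90 points. Meninges minus parenchyma, the nonproductive TRA share ran from -6.20 to 15.03 points and median TRB UMIs from -1.25 to 0.25 without 1 library. Segment calls between beta-only and paired clones were 1 when cells were counted (TRBV12-1) and 0 to 1 without 1 library (TRBV2, without NonTg meninges). The cause was not tested. With no TRA contig at all as the definition, the beta-only share by library fell to between 4.68% and 17.2%. The replicate block left the genotype difference in share at 3.50 points (p = 1) and segment calls at 0, and a crossed block, added because the same-numbered libraries correlated at -0.13, also gave 0. The numbers of meningeal beta-only cells, 36 and 73, limit what those libraries can show.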
